A study of Caenorhabditis elegans with 2 samples.

Results

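The 1907 regions described here are weak LSL-1 regions: autosomal promoter regions of the pooled region list that rank below the peaks that passed a threshold on the irreproducible discovery rate (IDR), a measure of whether a peak holds a like rank in each replicate. They were taken from 30000 pooled regions by 4 conditions. A region had to be on an autosome, to rank by its deposited signal after the 3897 IDR peaks and no lower than 10000, to have its summit over 100 bp from every IDR summit, and to have that summit between 1000 bp upstream and 200 bp downstream of the annotated 5′ end of a protein-coding gene. Of the 5807 autosomal regions at these ranks, 0 were within 100 bp of an IDR summit, so that condition removed none, and 1907 (32.8%) met the promoter condition. The signal, the rank and the promoter position chose the regions and are given as description.

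LSL-1 is a zinc finger protein of Caenorhabditis elegans related to LSY-2, and it is known as a transcription factor of the germ line that acts on genes of meiosis and germ cell maintenance. Chromatin immunoprecipitation followed by sequencing maps such a protein by recovering the DNA fragments bound to it and counting where they pile up. IDR is meant to keep strong pile-ups that return in each replicate. In these lists the IDR peaks fill the first 3897 pooled ranks, so the line is also one of pooled signal. Of the weak regions, 5 were among the top 3897 of both replicates and are still below that line. Regions below that line can be weak sites, sites used in few cells, shoulders of strong peaks or background, and a region list alone does not separate these.

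The material was whole young adult worms, 69 h old and of mixed sex, of strain OP720. These animals carry the mutation unc-119(tm4063) and the transgene wgIs720, in which lsl-1 is joined to TY1, EGFP and 3xFLAG tags and which also holds a working copy, unc-119(+). LSL-1 was recovered with an antibody against GFP. There were 2 biological replicates in 1 group, with no untagged or untreated group among the samples analysed, and both replicates share the transgene. The labels name a possible control experiment, which is not analysed here. Whole animals were used, so the cell type behind a region is not known, and occupancy in few cells cannot be told from weak occupancy in many. The read depth is unknown. The lists hold 30000 regions for replicate 1 and 26018 for replicate 2, and 3897 IDR peaks, of which 2245 are autosomal promoter peaks. Exact 95% intervals below cover counting of regions or genes alone, and neighbouring regions are not independent.

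Some of these summits carry the sequence words of the stronger peaks. The leading 8-base word of IDR promoter peaks is AAAGGCGC, which contains the 6-base word AGGCGC, and the leading 8-base word of the weak regions themselves is AGACGCAG. The leading 8-base word of autosomal regions of the same ranks outside promoter windows is CTACAGTA. All words were read on both strands. The sequences below show high-ranked examples of each, as 101 bases centred on the summit, 5′ to 3′ on the plus strand of ce11 (WBcel235), with the word or its reverse complement in capitals. The examples were taken from chromosomes II to V, and windows that reach an annotated exon of a protein-coding gene are not shown.

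The first 4 hold AAAGGCGC and are shown because they carry the word of the strong peaks at a weak summit. They are at C27D6.12 (chrII:5178720-5178820), C03C10.5 (chrIII:4092969-4093069), perm-5 (chrIV:5704394-5704494), an eggshell permeability gene, and ZK856.14 (chrV:10216507-10216607). The C27D6.12 and perm-5 windows also hold CTACAGTA or its reverse complement, in small letters here. Read in the orientation of AAAGGCGC, the windows of C27D6.12, perm-5 and ZK856.14 are alike well beyond that word. Whether they are copies of a repeated sequence was not tested.
C27D6.12: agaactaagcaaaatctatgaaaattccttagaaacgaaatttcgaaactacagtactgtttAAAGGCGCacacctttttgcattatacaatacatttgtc
C03C10.5: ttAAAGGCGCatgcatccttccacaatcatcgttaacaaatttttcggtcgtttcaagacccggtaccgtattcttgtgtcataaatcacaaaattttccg
perm-5: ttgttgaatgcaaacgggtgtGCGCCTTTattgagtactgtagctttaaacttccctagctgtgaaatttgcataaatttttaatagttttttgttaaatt
ZK856.14: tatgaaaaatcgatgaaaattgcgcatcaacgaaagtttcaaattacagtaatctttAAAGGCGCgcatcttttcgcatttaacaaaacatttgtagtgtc

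The next 3 hold AGACGCAG, the word that ranked first in the weak regions. They are at lin-66 (chrIV:13887581-13887681), a gene of the heterochronic pathway that times larval development, epg-4 (chrIII:7181939-7182039), an autophagy gene, and F12A10.9 (chrII:5497719-5497819).
lin-66: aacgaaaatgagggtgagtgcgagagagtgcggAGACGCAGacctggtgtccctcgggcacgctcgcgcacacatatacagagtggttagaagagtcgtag
epg-4: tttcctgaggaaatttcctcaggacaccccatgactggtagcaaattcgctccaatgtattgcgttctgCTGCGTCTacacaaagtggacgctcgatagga
F12A10.9: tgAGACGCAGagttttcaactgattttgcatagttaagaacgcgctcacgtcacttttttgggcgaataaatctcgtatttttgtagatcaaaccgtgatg

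The last 2 hold CTACAGTA, the word that ranked first in regions of the same ranks outside promoter windows. They are at Y46G5A.15 (chrII:12785833-12785933) and at the nuclear hormone receptor gene nhr-66 (chrIV:8237181-8237281). The first carries the word in each orientation.
Y46G5A.15: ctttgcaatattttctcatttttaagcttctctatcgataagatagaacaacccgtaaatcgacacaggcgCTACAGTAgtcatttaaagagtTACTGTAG
nhr-66: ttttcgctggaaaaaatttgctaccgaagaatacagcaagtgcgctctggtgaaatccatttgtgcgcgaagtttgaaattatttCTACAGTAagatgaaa

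Of these 9 summits, those of C27D6.12, perm-5, lin-66, epg-4 and nhr-66 differed by less than 1000 ranks between replicates. The C27D6.12 region ranked 3899 in replicate 1 and 4688 in replicate 2, the perm-5 region 4265 and 5123, the lin-66 region 4409 and 4077, the epg-4 region 4332 and 3941, and the nhr-66 region 4545 and 4199. The ZK856.14 region ranked 3448 in replicate 1 but 21299 in replicate 2, and the F12A10.9 region 3336 and 21361. A summit with one of these words was thus not always ranked alike by the replicates.

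Signal within the class ran from 51.04 to 114.76, with a median of 69.6, on the caller's own scale, which ranks regions within 1 list but is not a fold. There was no step at either border. The last IDR peak, at rank 3897, had a signal of 114.78 and the next region had 114.76, while ranks 10000 and 10001 had 51.0208 and 51.0202. The deposited −log10 q-value of the weak regions ran from 0.691 to 3.43 (median 1.61), and the lowest among IDR peaks was 3.13. Of the 1907 regions, 1858 had the same width of 436 bp (97.4%), against 34.5% of IDR promoter peaks.

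The 10 strongest weak regions were at genes of very different roles. The first, at the linker histone gene hil-4 (chromosome V, 4754269 to 4754704), had its summit 174 bp downstream of the 5′ end, in a coding exon, and ranked 4703 in replicate 1 and 4859 in replicate 2. Its summit lay 200 bp from an IDR summit. The region at the proteasome subunit gene pbs-5 (chromosome I, 14720238 to 14720673) had its summit at +21 bp, 8662 bp from the nearest IDR summit, and ranked 4169 and 3568. The region at aman-2, which encodes a Golgi mannosidase (chromosome V, 11933191 to 11933626, summit at -163 bp), ranked 3864 and 4311. That at sams-3, an S-adenosylmethionine synthetase gene (chromosome IV, 5847941 to 5848376, summit at -498 bp), ranked 4063 and 5493. That at crls-1, the cardiolipin synthase gene (chromosome III, 909746 to 910181, summit at -62 bp), ranked 4411 and 3617. The remaining regions among the 10 were those at Y71H2AM.3, C50F2.2, Y46G5A.15, the prolyl-tRNA synthetase gene pars-1 and the vesicle transport gene sec-12. For sec-12 the replicates stood apart, at rank 3488 in replicate 1 and 18184 in replicate 2. The matched summit of replicate 2 lay 94 bp from the pooled one, and whether both mark the same site was not tested. The weakest regions of the class were at the membrane sorting gene vps-20, which ranked 11113 and 7660, and at apx-1, a Notch ligand gene of the early embryo, which ranked 9071 in replicate 1 and had no summit within 100 bp in replicate 2.

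The replicates supported the class unevenly. Of the 1907 regions, 1787 (93.7%) had a summit within 100 bp in the list of replicate 1 and 1310 (68.7%) in that of replicate 2. Both lists held 1209 (63.4%, 61.2 to 65.6), replicate 1 alone held 578, replicate 2 alone 101 and neither 19. The share in both depended on the match distance, at 44.6% within 50 bp and 79.8% within 200 bp. IDR promoter peaks were in both lists in 96.2% of cases, regions of the same ranks outside promoter windows in 62.6%, and the 4082 lower-ranked autosomal promoter regions in 16.5%. The pooled list was made from these replicates, so none of these shares is an independent test. Within the class the share in both lists went from 77.3% between the IDR border and rank 5000 to 44.4% at ranks 9001 to 10000. Among the 1209 regions in both lists, 665 ranked higher in replicate 1 and 544 in replicate 2. Both replicates placed 611 regions (32.0%) among their own top 10000, and 5 among their own top 3897.

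**Figure D1:**
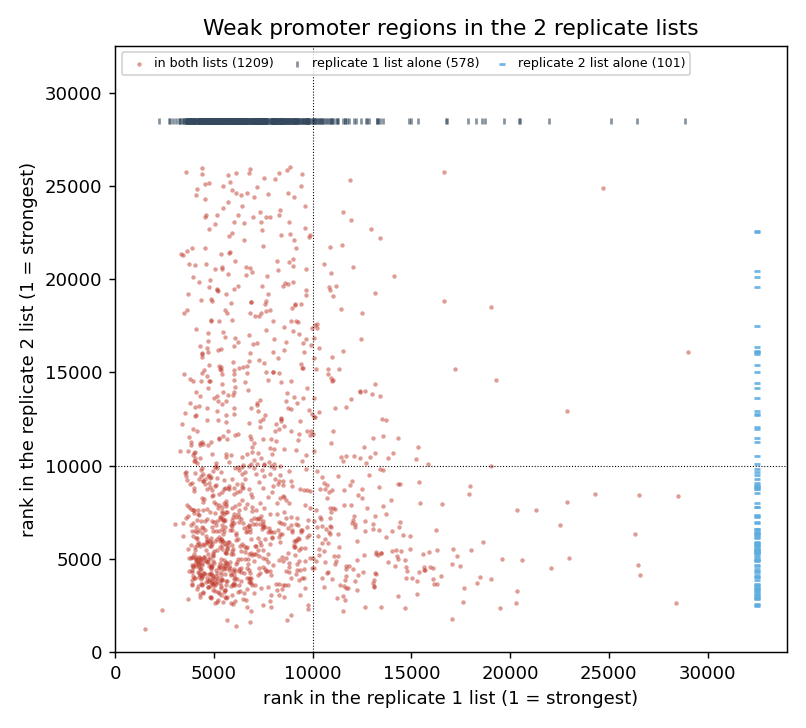
Rank of each weak promoter region in the list of replicate 1 (horizontal) and of replicate 2 (vertical), where rank 1 is the strongest and dotted lines mark rank 10000. Points are the 1209 regions in both lists, the row of ticks at the top the 578 in replicate 1 alone and the column at the right the 101 in replicate 2 alone; 947 of the points lie at rank 10000 or stronger in replicate 1 and 795 in replicate 2.

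The widest gaps between replicates occurred in both directions. Next to dhs-8, a dehydrogenase gene, the region ranked 28383 in replicate 1 and 2629 in replicate 2. The region at W01D2.3 ranked 26565 and 4127, and that at uev-3, a ubiquitin-conjugating enzyme variant gene, 26475 and 4684. For uev-3 the matched summits of replicates 1 and 2 lay 98 and 56 bp from the pooled one. In the other direction, the region in the windows of F37A4.2 and bath-41 ranked 3562 in replicate 1 and 25753 in replicate 2. The regions at the dehydrogenase gene dhs-1 (4394 and 25961) and at mig-38, a gene of gonad cell migration (4380 and 25658), were of the same kind. The summits at dhs-8 and W01D2.3 were each 202 bp from an IDR summit.

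A distinct share of the class sat beside stronger peaks. The closest weak summit was 199 bp from an IDR summit, and 251 of 1907 (13.2%) lay within 210 bp of one. Another 71 were over 210 and up to 500 bp away, and 1585 were farther than 500 bp. Among regions of the same ranks outside promoter windows 173 of 3900 (4.44%) were within 210 bp of an IDR summit. The median distance over the class was 2647 bp. Besides hil-4 and pars-1 (201 bp), the regions beside IDR peaks include those at ego-1, an RNA-dependent RNA polymerase gene of germline small RNA pathways (200 bp), the germ granule gene pgl-3 (220 bp), the polo kinase gene plk-1 (200 bp), and the eggshell genes egg-1 (206 bp) and gna-2 (209 bp). Whether such a summit is a site of its own or part of the neighbouring peak was not tested. The 322 regions within 500 bp were in both replicate lists in 64.6% of cases and the 1585 others in 63.2%.

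**Figure D2:**
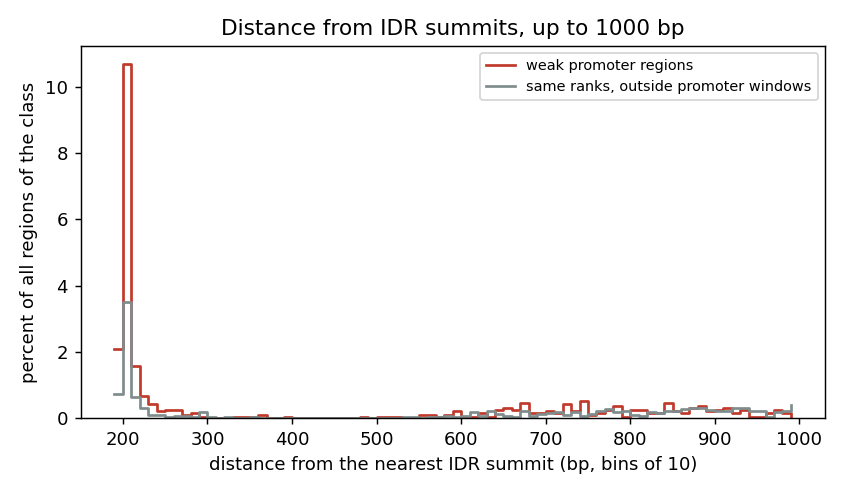
Share of each class, in percent of all its regions, by distance of the summit from the nearest IDR summit in bins of 10 bp up to 1000 bp. Weak promoter regions (red) and regions of the same ranks outside promoter windows (grey) both have their highest bin just past 200 bp and few regions from there to 500 bp.

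The positions of the weak summits spread more widely over the window than those of the IDR promoter peaks. The summit lay at a median of -202 bp from the closest 5′ end (quartiles -509.5 and -23), against -209 bp (-385 and -107) for IDR promoter peaks and -308 bp (-667 and -24) for lower-ranked promoter regions. The window sets these medians: with 2000 bp upstream they were -469 bp for weak regions and -251 bp for IDR promoter peaks, and with 500 bp upstream and 100 bp downstream -141.5 and -178 bp. Of the weak summits 27.1% were 1 to 200 bp upstream, where 40.4% of IDR promoter peaks were. From the 5′ end to 200 bp downstream lay 22.5% of the weak summits and 7.53% of the IDR promoter peaks. Many worm transcripts are trans-spliced, so transcription can begin upstream of the annotated 5′ end.

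**Figure D3:**
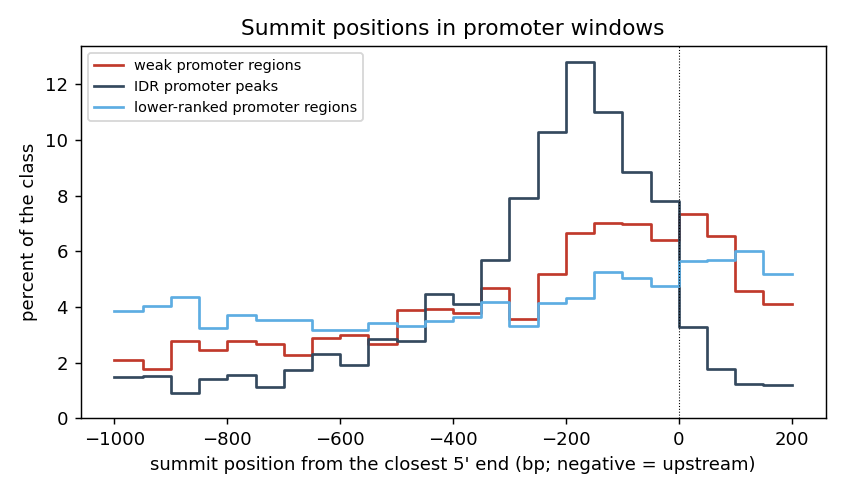
Summit position relative to the closest annotated 5′ end, in percent of each class per bin of 50 bp, with negative values upstream. IDR promoter peaks (dark) are concentrated between 300 bp upstream and the 5′ end, the weak regions (red) are flatter and continue past it, and lower-ranked promoter regions (blue) vary the least across the window of these 3 classes.

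The annotation at the summit is given without a test, since position relative to genes was part of the choice. Coding exons held 402 weak summits (21.1%), against 2.63% of the IDR promoter peaks and 26.5% of the lower-ranked promoter regions. Intergenic sequence held 1007 (52.8%), introns 227 (11.9%), 3′ UTRs 186 (9.75%) and 5′ UTRs 85 (4.46%). Summits in windows of genes on both strands were 333 (17.5%), against 34.0% of IDR promoter peaks and 9.41% of lower-ranked promoter regions. The closest gene had a same-strand neighbour within 500 bp upstream, as in worm operons, for 661 weak regions (34.7%), against 20.04% of IDR promoter peaks and 32.5% of lower-ranked promoter regions. Of all autosomal protein-coding genes 19.4% have such a neighbour. Median GC content within 50 bp of the summit was 38.6% in weak regions, 42.6% in IDR promoter peaks and 37.6% in lower-ranked promoter regions.

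The regions were on all 5 autosomes, with the most per Mb on chromosome III. There were 415 on chromosome I, 371 on II, 427 on III, 356 on IV and 338 on V, or 27.5, 24.3, 31.0, 20.4 and 16.2 per Mb. For each IDR promoter peak there were from 0.798 weak regions on chromosome I to 0.901 on IV, so the spread over chromosomes was close to that of the strong peaks. Within 200 bp of a tRNA gene lay 19 summits (0.996%), against 1.78% of IDR promoter peaks, 1.64% of same-rank regions outside windows and 0.269% of lower-ranked promoter regions. For snoRNA genes the count was 13 (0.682%, against 1.11, 0.590 and 0.392%) and for piRNA genes 10 (0.524%, against 1.16, 0.667 and 1.47%).

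The class reached 2095 of 17242 autosomal protein-coding genes, a background share of 12.2%. Of these genes 540 also had an IDR peak in the window, which is 19.2% of the 2808 genes with one. The other 1555 (74.2%) had none, which is 10.8% of the 14434 genes without one. A weak region was thus more frequent among genes with an IDR peak than among genes without. Counted by region, 1477 of the 1907 (77.5%, 75.5 to 79.3) lay only in windows of genes without an IDR peak. That share was 61.0% with a window reaching 2000 bp upstream. With the IDR peaks, which 16.3% of genes had, the genes with either kind came to 4363 (25.3%). The windows of 388 regions (20.3%) were shared by 2 or more genes, for which position does not single out a gene. Among genes named below, the summits at htp-1, ooc-3, prp-21, pas-1, rpn-7 and hda-1, for example, lay closer to the 5′ end of another gene. Neither lsl-1 nor unc-119, both carried by the transgene, had a weak region.

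Up to 3 weak regions lay in 1 window, which was the case for 14 genes, and 213 genes had at least 2. One of the 14 is teg-4, a splicing factor gene known for its role in the choice between germline proliferation and differentiation. Its summits at -764, -535 and -35 bp had pooled ranks 4054, 7980 and 8394. The first was at rank 4308 in replicate 1 and 4468 in replicate 2, while the second was not found in replicate 2 and the third ranked 23306 there. The vesicle tethering gene trpp-11 had summits at +10, -528 and -271 bp, of which the last 2 were in replicate 1 alone. The 5 of these 14 genes named here, which also include K01G5.8, Y106G6D.5 and R10E11.6, had no IDR peak. Of all 2095 genes with a weak region, 74.2% had none.

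Gene lists showed which genes gain a region only at this lower rank. The lists and the regions were chosen with earlier results of these data known, so the shares are read only against the shares over all genes. Of 181 autosomal genes in the meiosis, germ granule, germline RNA regulator and oocyte lists, 126 had an IDR peak and 42 (23.2%) a weak region, against the background of 12.2%. That share was 14.9% (27 genes) with regions farther than 500 bp from IDR summits alone, against 9.65% of all genes, and also 14.9% with regions in both replicates, against 8.07%. Of the 55 without an IDR peak, 20 (36.4%, 23.8 to 50.4) had a weak region, against the background of 10.8%. The general lists, which hold housekeeping, cell division, chromatin, histone and stress genes, had 108 of 287 (37.6%, 32.0 to 43.5) by the same count. In the somatic lists it was 60 of 2313 (2.59%, 1.99 to 3.33), and in the sperm list 5 of 86 (5.81%, 1.91 to 13.0). Of the 20 germline genes 15 had such a region in both replicates, where over all genes 1056 of 1555 did. All 20 had one farther than 500 bp from IDR summits, as did 1542 of the 1555, which the absence of an IDR peak from the window nearly fixes.

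**Figure D4:**
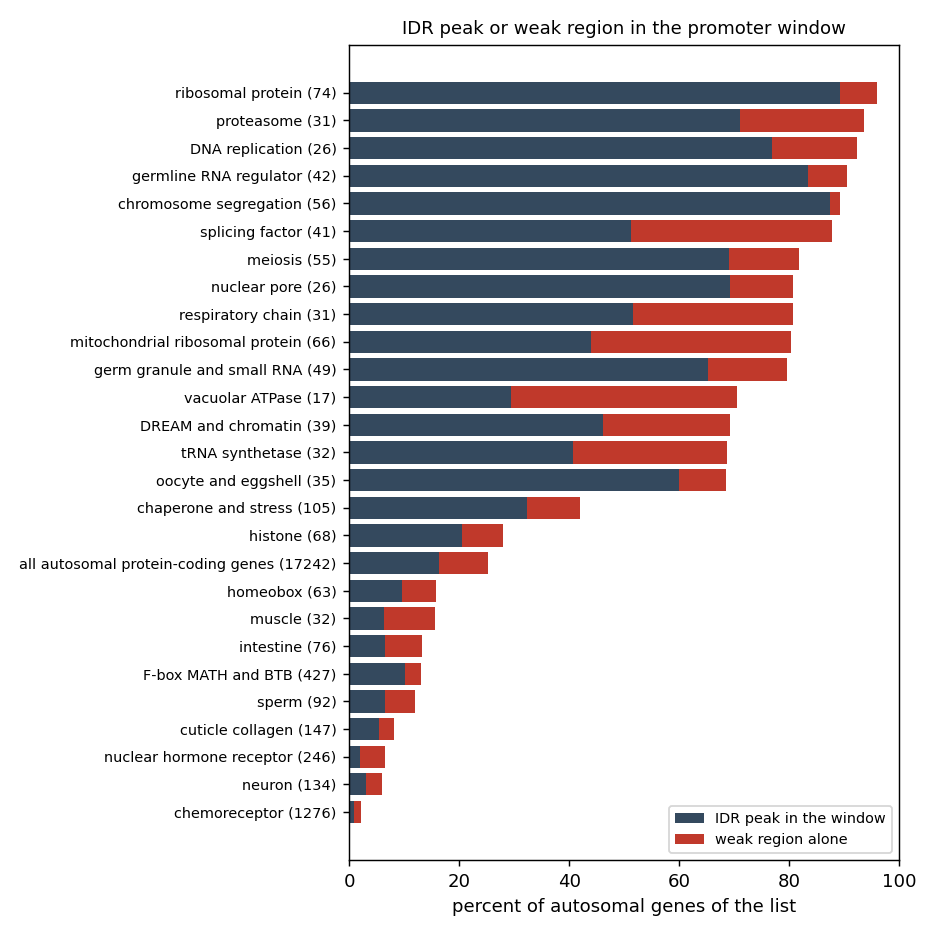
Share of the autosomal genes of each list, in percent, with an IDR peak in the promoter window (dark) and with a weak region but no IDR peak (red); the number of genes is in brackets. The red part is widest for vacuolar ATPase, splicing factor, mitochondrial ribosomal protein and respiratory chain genes, and narrow for somatic lists such as chemoreceptors.

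Among meiosis genes, 7 of 17 without an IDR peak had a weak region (41.2%). The strongest was at him-6, the worm relative of the Bloom helicase (chromosome IV, 12490038 to 12490473, summit at -535 bp), which ranked 4907 in replicate 1 and 3708 in replicate 2. At him-14, which encodes a MutS homolog needed for crossovers (chromosome II, 7069984 to 7070419, summit at -236 bp), the ranks were 5878 and 5288. The regions at syp-3, a synaptonemal complex gene, and htp-1, a chromosome axis gene, lay 263 and 227 bp from IDR summits of the same windows. The htp-1 region ranked 2388 and 2278 in the replicates, in both cases above its pooled rank of 5239.

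Germ granule and small RNA genes had the same count, 7 of 17. The region at rde-10, a gene of small RNA amplification (chromosome I, 3546864 to 3547299, summit at +11 bp), ranked 4030 and 3997, and its window overlaps that of the splicing factor gene rnp-6, so either gene may be the one concerned. The regions of ego-1 (rank 3090), whose window also has an IDR peak, and of ife-1, a cap-binding translation factor gene (4965), were in replicate 1 alone. Among germline RNA regulators 3 of 7 had a weak region, at cpb-1, mog-1 and mog-5. The mog-1 region ranked 4041 and 4734, while that at cpb-1, which encodes an RNA-binding protein needed for sperm formation, ranked 4122 in replicate 1 and 24845 in replicate 2. Oocyte and eggshell genes had 3 of 14, among them ooc-3, a gene of embryo polarity (5565 and 2983), and cpg-3, a chondroitin proteoglycan gene (5973 and 3639), whose summits each hold at least 1 of the 5 words described below.

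The housekeeping lists differed in how much of them was left for the weak class. Splicing factor genes had 15 of 20 (75%), including prp-21 (ranks 4421 and 3233) and snr-5, a gene of the Sm core (4526 and 7035). Mitochondrial ribosomal protein genes had 24 of 37 (64.9%). Of these, mrps-23 (chromosome III, 9523345 to 9523780, summit at +109 bp) ranked 4080 and 4642 and mrpl-47 ranked 4398 and 3642. Respiratory chain genes had 9 of 15 (60.0%), vacuolar ATPase genes 7 of 12 (58.3%) and tRNA synthetase genes 9 of 19 (47.4%). The region at the proton pump subunit gene vha-9 (chromosome II, 10303669 to 10304104, summit at -174 bp) ranked 5537 and 3319, while those at vha-2 and vha-16 were in replicate 1 alone.

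Cytosolic ribosomal protein genes left few without an IDR peak, and 5 of those 8 had a weak region. One was rps-2, whose summit holds AAAGGCGC and which ranked 3756 in replicate 1 with no match in replicate 2. Proteasome genes had 7 of 9, with pas-1 and rpn-7 in replicate 1 alone, and nuclear pore genes 3 of 8, with npp-16 at 4137 and 5754. DNA replication genes had 4 of 6, among them orc-4 of the origin recognition complex (4782 and 14549). Chromosome segregation genes had 1 of 7, at the spindle checkpoint gene mdf-1 (4198 and 7606). DREAM and chromatin genes had 9 of 21, among them the histone deacetylase gene hda-1 (3932 and 4548) and lin-52, a DREAM complex gene (6307 and 3269). The hda-1 summit lay at -992 bp and at -268 bp from the 5′ end of ril-1, so it is closer to that gene. Chaperone genes had 10 of 71 and histone genes 5 of 54, both near the background of 10.8%. At the divergent heat shock genes hsp-16.2 and hsp-16.41 there was 1 shared region, in replicate 1 alone at rank 3884.

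Shares in the somatic lists ran from 1.27 to 10%, all below the 10.8% of all genes without an IDR peak. Chemoreceptor genes had 16 of 1264 (1.27%), collagens 4 of 139 (2.88%), neuron genes 4 of 130 (3.08%), F-box, MATH and BTB genes 13 of 384 (3.39%) and nuclear hormone receptors 11 of 241 (4.56%). Homeobox genes had 4 of 57 (7.02%), intestine genes 5 of 71 (7.04%) and muscle genes 3 of 30 (10%), nearer to the background. These counts are small, and only 1 of the homeobox, 1 of the intestine and 3 of the muscle genes had such a region in both replicates. A further 14 symbols of the muscle list matched no autosomal protein-coding gene. The muscle genes were act-1 and act-3, which encode actin, and unc-112, an attachment gene. The unc-112 region ranked 6666 and 6692, and that at act-1 10577 and 3471. At the neuropeptide gene flp-23 the ranks were 4285 and 4958, and at the synaptobrevin gene snb-1 5528 and 6520. The sperm genes included spe-6, a kinase gene (5372 and 3447), whose window overlaps that of Y66D12A.21.

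Sequence was not used to choose the regions. The 5 leading 6-base words of autosomal IDR promoter peaks were ACCGTA (within 50 bp of 22.2% of their summits), GGCGCA (18.9%), ACGCGC (16.2%), AGGCGC (16.3%) and GAGACC (19.3%), each read with its reverse complement. AGGCGC and GGCGCA overlap by all but their end bases, so 1 stretch can give both. Within 50 bp of the weak summits at least 1 of them occurred in 333 regions (17.5%), against 55.0% of IDR promoter peaks, 20.5% of regions of the same ranks outside windows, 12.7% of lower-ranked promoter regions and 10.4% of windows of 101 bases placed at -202 bp of all 17242 promoters. The flanks of the same regions, defined below, held at least 1 of the words in 15.0% of weak regions. That flank share was 13.5% for IDR promoter peaks, 13.7% for same-rank regions outside windows and 11.3% for lower-ranked promoter regions. The any-word share of weak regions was thus only a little higher at summits than in flanks, and that difference was not tested. The words were chosen in the IDR promoter peaks, which favours these, so their shares there and in weak regions are given without a p-value. Over the 5 words the odds ratio of weak regions to IDR promoter peaks ran from 0.149 for ACCGTA (4.09 against 22.2%) to 0.295 for ACGCGC (5.40 against 16.2%). All 17242 promoters held ACCGTA in 3.34% of such windows, GGCGCA in 2.31%, ACGCGC in 2.35%, AGGCGC in 2.09% and GAGACC in 2.93%.

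Compared with flanks 200 to 250 bp away in the same regions, 3 of the 5 words were more frequent at the weak summits by the exact McNemar test. By this exact test ACGCGC was in 5.40% of summit windows and 2.99% of flanks (adjusted p = 0.000875), GGCGCA in 5.14 and 3.51% (adjusted p = 0.0345) and AGGCGC in 4.30 and 2.88% (adjusted p = 0.0345). ACCGTA (4.09 and 4.93%, adjusted p = 0.294) and GAGACC (4.77 and 4.82%, adjusted p = 1) did not pass the exact test. The words were chosen as more frequent at IDR promoter summits than in flanks 200 to 250 bp from them. Windows of the 251 weak summits within 210 bp of an IDR summit can overlap those flanks. For these regions the choice of words was not independent. The flanks of the 322 regions within 500 bp of an IDR summit held ACCGTA in 11.8% and GGCGCA in 10.6% of cases. Among the 1585 other regions the flank shares were 3.53 and 2.08%, and 4 of the 5 words passed. There, by the same exact test, ACGCGC was in 5.74% of summit windows and 1.70% of flanks (adjusted p = 1.994e-09) and GAGACC in 5.24 and 3.53% (adjusted p = 0.0259), while ACCGTA did not pass (4.35 and 3.53%, adjusted p = 0.263). The number of words that passed was 0 without replicate 1, when the same ranks were taken from the list of replicate 2, and 1 without replicate 2. Median GC content of the weak regions was 38.6% within 50 bp of the summit and 36.3% in the flanks. The 3 words that passed over all weak regions have more G and C bases than those that did not. Whether base composition accounts for the difference was not tested.

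Against regions of the same ranks outside promoter windows only ACCGTA differed, and it was rarer at the weak summits (4.09 against 6.0%, odds ratio 0.668, 0.507 to 0.873, adjusted p = 0.0117, two-sided Fisher's exact test). For the other words the odds ratios had intervals that include 1 or an adjusted p over the threshold, as for GGCGCA (5.14 against 5.13%, odds ratio 1.0, 0.774 to 1.29) and GAGACC (4.77 against 6.10%, odds ratio 0.771, 0.595 to 0.993, adjusted p = 0.0999, two-sided Fisher's exact test). Without replicate 2, GAGACC also passed Fisher's exact test (adjusted p = 0.0101), and among regions farther than 500 bp from IDR summits ACCGTA no longer did (adjusted p = 0.0531).

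The share with any of the 5 words was lower past the IDR border than before it, and it already fell within the IDR ranks. The words were chosen in the IDR promoter peaks, which favours the ranks before the border. Promoter regions at ranks 1 to 1000 held 1 in 75.8%, those at 3001 to 3897 in 31.5%, weak regions up to rank 5000 in 21.7% (17.96 to 25.9), and those at 7001 to 8000 in 13.3% (9.58 to 17.8). At ranks 9001 to 10000 it was 18% (13.4 to 23.3), and at 20001 to 30000 it was 12.7%.

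The 8-base words were described without a test, since they were chosen on these regions. AGACGCAG was in 62 weak summits (3.25%) and 0.682% of their flanks. IDR promoter peaks had it in 4.28%, regions of the same ranks outside windows in 2.21%, lower-ranked promoter regions in 1.59% and all promoters in 1.25%. The word was in 5.49% of the weak regions up to rank 5000 and in 1.22% at 6001 to 7000, with no even trend. Of the 62 regions 44 were in both replicate lists. AAAGGCGC was in 42 weak summits (2.20%) and 1.52% of their flanks, against 11.9% of IDR promoter peaks and 0.922% of all promoters. Regions of the same ranks outside windows had it at 2.82% of summits, and lower-ranked promoter regions at 0.661%. CTACAGTA was in 86 weak summits (4.51%) and 2.25% of their flanks. IDR promoter peaks had it at 10.3% of summits and in 1.96% of flanks, and lower-ranked promoter regions at 2.72% of summits. Regions of the same ranks outside windows had it at 12.8% of summits and in 5.21% of flanks. Among these regions outside windows its share was 19.3% from the IDR border to rank 5000 and 9.08% at ranks 9001 to 10000. All promoters had it in 1.45%.

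**Figure D5:**
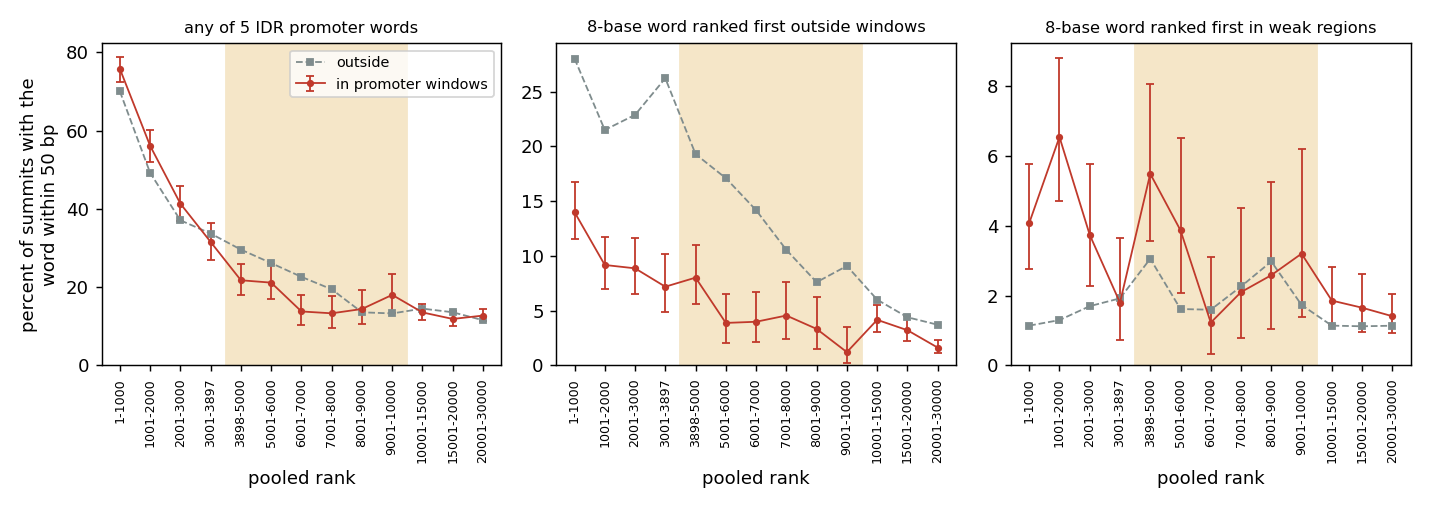
Percent of summits with a word within 50 bp by pooled rank, for autosomal regions in promoter windows (red, with exact 95% intervals) and outside them (grey); shading marks the ranks from the IDR border to 10000, where the red points are the weak regions. The share with any of the 5 words in promoter windows is 75.8% in the first bin and between 11.8 and 18% from rank 6001 on, the word from regions outside windows is more frequent outside in every bin, and the word from the weak regions shows no even trend. Each word was chosen in its own class of regions, which favours the ranks of that class.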

How the data were processed

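Per the labels, the submitters called regions for each replicate separately and for the pool of both, on ce11. Which caller, aligner and IDR threshold were used, and the depth, is not given in the sources used here. The deposited signal of each region was used only for ranks, the deposited −log10 q-value only for its range, and the deposited summit offset for positions. The gene annotation was Ensembl release 115 of WBcel235, and bases were read from RefSeq's assembly of that build. Regions, gene lists and words were chosen with earlier results of these data known.

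Named genes are those of the 10 strongest regions and the last 2, up to 4 per list, those with the most regions (up to 5), up to 8 per 8-base word, and the 3 widest rank gaps each way; genes sharing a window follow. A summit window gives a 6-base word 96 positions and both flanks together 92. Words were compared with flanks by the two-sided exact McNemar test and between classes by two-sided Fisher's exact test, with Benjamini-Hochberg adjustment over 5 words and a threshold of 0.05. With 1 group, no test between groups was possible. The replicates are separate biological samples per the labels; p-values here describe regions, not animals. Alternatives were other windows, distances, ranks, midpoints, merged summits, each replicate's own list, match distances, word settings and closest genes; keeping regions in both replicates was added after seeing the data. The scripts were tested on simulated data. Python 3.11.15, numpy 2.4.6, pandas 2.3.3 and scipy 1.17.1 were used.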

Additional observations from a re-analysis of the deposited data

How the results depend on the processing

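No paired analysis was possible because there is 1 group. Of 80 values from alternatives for the main results, 44 stayed within their margin. The number of regions was 1100 at ranks up to 7000, and ran from 1692 to 1784 in each replicate's own list. The share in both lists was 44.6% at 50 bp and 79.8% at 200 bp. The share whose genes had no IDR peak was 82.8% with a window from 500 bp upstream to 100 bp downstream, 61.0% with 2000 bp, 92.6% over 500 bp from IDR summits (a filter that removes such genes), 75.5% at ranks to 7000, 82.4% for the closest gene, and 75.4 to 78.1% in the single replicates. The median position was -141.5 and -469 bp with those windows, -260.5 bp without operon-like genes, and -254 to -212 bp in the single replicates.

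Of the 5 words, 0 to 1 passed against flanks in the single replicates, 1 with summits merged, 1 at 25 bp around the summit and 5 with flanks 400 to 450 bp away. Against regions outside windows, 0 passed over 500 bp from IDR summits or at 25 bp, 2 at ranks to 7000, with summits merged or at 100 bp, and 1 to 2 in the single replicates. Germline genes with a weak region were 14.9% with the narrow window, over 500 bp from IDR summits, at ranks to 7000 or in both replicates (all genes: 8.13, 9.65, 7.5 and 8.07%). With the wide window they were 35.9% (all genes: 17.7%), and among genes without an IDR peak 36.4% (all such genes: 10.8%). In the lists of replicates 1 and 2 alone they were 16.0 and 21.5% (all genes: 11.3 and 10.6%). Somatic genes were 1.58, 5.05 and 1.63% with the narrow window, the wide window and ranks to 7000 (all genes: 8.13, 17.7 and 7.5%). They were 1.83% in both replicates (all genes: 8.07%). In the lists of replicates 1 and 2 alone they were 3.17 and 3.79% (all genes: 11.3 and 10.6%).

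Differences that changed sign were, in percentage points at summits minus flanks, ACCGTA 0.820 over 500 bp from IDR summits and 1.73 with far flanks, and GAGACC 1.70, 2.25, 0.182 at ranks to 7000 and -0.355 to 0.729 in the single replicates. Weak minus outside regions, they were GGCGCA -1.76 at ranks to 7000, -0.759 to 0.255 in the single replicates and -0.562 at 100 bp, and ACGCGC 0.318 over 500 bp from IDR summits, -0.143 to 0.309 in the single replicates, 0.134 with summits merged and 0.659 in both replicates. Causes of these changes were not tested; fewer regions enter when ranks, distances or replicates are restricted. The read depth is unknown, so what depth limits cannot be given.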
